A study of Homo sapiens with 48 samples.

Results

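Control transfections of Huh7, a line grown from a human hepatoma, were compared with those of THP1, a line grown from a human monocytic leukaemia, to describe how the expression of liver and myeloid genes differed between them. The arrays were chosen by their titles: every Huh7 or THP1 array with the negative control siRNA NC1 or NC2, which gave 32 of the 48 arrays of the series. The study transfected both lines with 3 siRNAs in 4 experiments per line, each on its own culture passage, with 2 wells per siRNA and experiment. The remaining 16 arrays, whose siRNA was aimed at an RNA made from the interval that separates C5 from TRAF1, entered here only through the normalisation and 1 alternative. The Huh7 group thus held 16 arrays and the THP1 group 16 arrays, and each experiment entered as 1 mean over its wells and both controls, which gives n = 4 for each line throughout. Both groups had the same medium, Lipofectamine, 300000 cells and 50 pmol of siRNA per well, and RNA was taken after 2 days, so no group was free of transfection. Each cell type is represented by 1 line, and a difference between liver and myeloid cells cannot be told apart from one between these lines.

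Hepatocytes secrete most plasma proteins, assemble lipoproteins, and convert amino acids, nitrogen and foreign compounds. Their genes are driven by a set of factors that includes the FOXA and ONECUT families and C/EBP alpha. Monocytes and their precursors arise under PU.1 and related factors, fill their granules with proteases and sense microbes through surface and cytosolic receptors. Hepatoma cells often keep part of the adult liver programme and switch on genes of the fetal liver, and leukaemic monocytic cells often keep genes of the early myeloid stage.

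Mean signal per control array lay between 247 and 397 in Huh7 and between 242 and 478 in THP1, and the number of arrays limits the precision. Between 11510 and 13977 probes per array were detected in Huh7 and between 10376 and 13849 in THP1, where detected means a detection p-value under 0.01 against the array's negative control beads. Duplicate wells correlated at 0.986 to 0.995 in Huh7 and at 0.976 to 0.997 in THP1, whereas experiment means of different lines correlated at 0.695 to 0.733. Each line filled its own 2 slides, with experiments 1 and 2 on one and experiments 3 and 4 on the other, so line and slide cannot be told apart, and the size of differences between slides of 1 line is given further down. The p-values measure the spread between culture passages of a line. In bulk RNA, fewer cells with a transcript and less transcript per cell cannot be told apart, and the level of one probe is not set against that of another.

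The labels were checked against 7 markers. Albumin (ALB), the main protein of plasma, had levels of 14.65, 14.65, 14.77 and 14.79 on the log2 scale in Huh7 experiments 1 to 4, against 4.76, 4.68, 4.62 and 4.45 in THP1. It was detected on 16 of 16 Huh7 and 0 of 16 THP1 arrays and was at least 552-fold higher in Huh7 (limma, adjusted p = 4.4e-11). Here a bound sets the mean of the brighter line against the dimmest signals that still counted as detected on the other line's arrays, because a probe that is not detected has no measured level. The p-value printed beside a bound, here and below, belongs to the difference of the normalised means, background values included. The bound itself was not tested. Transferrin (TF), the iron carrier of plasma, was at 13.87, 13.83, 13.90 and 14.55 in Huh7 and at 4.58, 4.58, 4.43 and 4.53 in THP1, at least 346-fold higher in Huh7 (adjusted p = 1.5e-10). The protease inhibitor alpha-1 antitrypsin (SERPINA1) was at 12.90, 13.22, 13.44 and 13.90 in Huh7 and at 4.66, 4.66, 4.57 and 4.85 in THP1, a bound of 217-fold (adjusted p = 6.5e-10). The other 2 tested probes of SERPINA1 differed by 1.63 and 8.32 on the log2 scale, in the same direction. Apolipoprotein A1 (APOA1), the main protein of HDL, was at 11.85, 12.17, 12.72 and 13.12 in Huh7 and at 4.90, 5.11, 5.06 and 4.65 in THP1, where 1 of 16 arrays detected it (difference 7.53, SE 0.26, adjusted p = 8.0e-09). For all 4 liver markers the lowest Huh7 experiment lay far above the highest THP1 experiment.

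The myeloid markers ran the other way but were less even. PU.1 (SPI1), the factor that specifies myeloid cells, was at 4.48, 4.44, 4.44 and 4.43 in Huh7 and at 8.98, 9.20, 9.81 and 9.31 in THP1. It was detected on 0 Huh7 and 16 THP1 arrays and was at least 14.7-fold lower in Huh7 (adjusted p = 9.2e-09). The integrin CD11b (ITGAM) was at 4.50, 4.55, 4.46 and 4.62 in Huh7 and at 6.86, 6.42, 5.52 and 6.21 in THP1, detected on 13 of 16 THP1 arrays (at least 1.75-fold lower in Huh7, adjusted p = 0.00019). CD45 (PTPRC), the tyrosine phosphatase common to leukocytes, had 4.41, 4.42, 4.43 and 4.40 in Huh7 and 7.12, 7.18, 4.60 and 4.71 in THP1, where it was detected on 8 of 16 arrays. The 2 THP1 experiments of the first slide stood above Huh7 and those of the second slide were close to it. The call (adjusted p = 0.048, at least 1.37-fold lower in Huh7) was lost in 12 alternatives. Among them were 6 of the 8 fits that left out 1 experiment. The other 2 tested probes of PTPRC differed by -0.97 and -0.95.

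**Figure D1:**
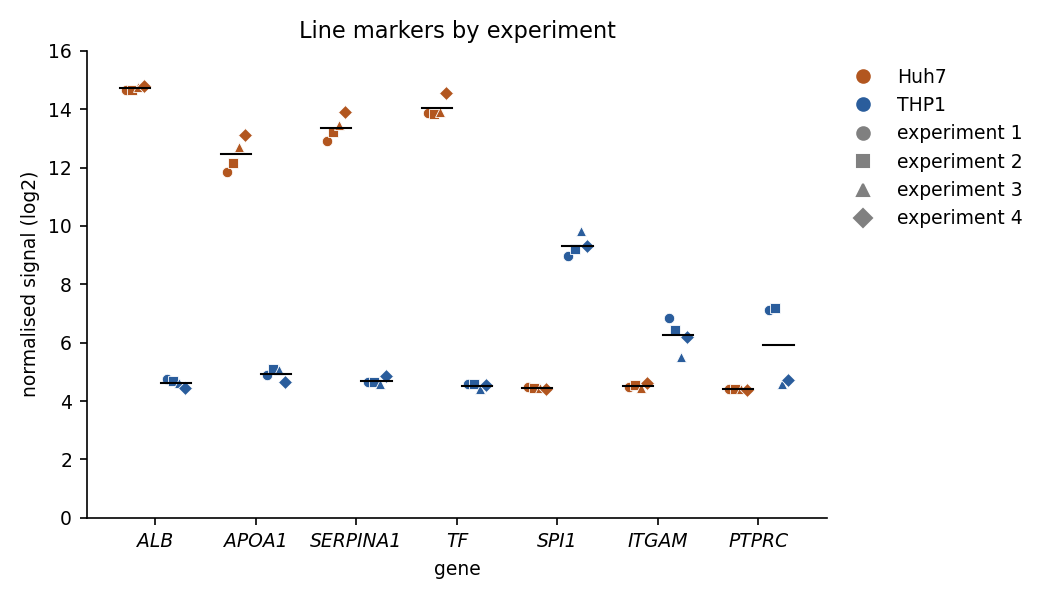
Normalised signal (log2, y axis) of the 7 markers (x axis), 1 point per experiment (n = 4 per line, marker shape gives the experiment), Huh7 left and THP1 right of each pair, bars at the means. The 4 liver markers lie at 11.85 or higher in Huh7 and at 5.11 or lower in THP1, SPI1 and ITGAM are higher in THP1, and PTPRC is raised in THP1 experiments 1 and 2 alone.

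Wider marker lists, chosen with earlier results of these data known, mostly went with the labels. Of 9 hepatocyte markers, 7 had a named probe; all 7 were detected on every Huh7 array, their summed linear signal was 70970 to 100200 in Huh7 experiments and 65.7 to 73.2 in THP1 experiments, and 5 were at 0 of 16 THP1 arrays. Of 10 myeloid markers, 9 had a named probe and 7 of them were detected on every THP1 array, with sums of 175 to 419 in Huh7 and 37470 to 39580 in THP1. In Huh7, 3 of these 9 were detected on at least 1 array, and 1 of them on every array. The myeloid list did not hold LYZ, CD14 or S100A9, monocyte genes called higher in Huh7 and described further down. HNF4A and CD33 had no probe with a single gene symbol and were not analysed here. Among 8 endothelial markers, 8 were undetected in Huh7 and 7 in THP1. Of 9 T and NK cell markers, 7 were undetected in each line. The granule membrane gene NKG7 was the exception in THP1, at 4.55, 4.53, 4.46 and 4.44 in Huh7 and 8.87, 9.20, 9.03 and 9.01 in THP1 (at least 11.9-fold lower in Huh7, adjusted p = 1.0e-09). The T cell receptor chain CD3D was the exception in Huh7, detected on 10 Huh7 and 0 THP1 arrays (at least 1.07-fold higher in Huh7, adjusted p = 0.00014). Of 8 fibroblast markers, 5 were undetected in Huh7 and 7 in THP1, and the collagen gene COL1A2 was detected on all Huh7 and no THP1 arrays (at least 1.69-fold higher in Huh7, adjusted p = 9.3e-07). Of 6 B cell markers with a probe, 5 were undetected in each line, and of 8 erythroid and megakaryocyte markers with a probe, 6 were undetected in Huh7 and 7 in THP1.

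Over all 15021 probes tested, 4750 were higher in Huh7 and 4927 higher in THP1, 31.6% and 32.8% of those tested, and 5344 were not called. A call is an adjusted p-value under 0.05 by limma with Benjamini-Hochberg adjustment. Of the calls, 2742 were higher in Huh7 and 2532 higher in THP1 by at least 1 on the log2 scale, 18.3% and 16.9% of the probes tested. A difference of at least 4 was found for 282 probes higher in Huh7 and 238 higher in THP1. The experiments of the lines did not overlap for 59.6% of the probes tested. With 1 probe per gene, the brightest, 3411 genes (33.6% of 10144) were higher in Huh7 and 3372 (33.2%) higher in THP1, and the median difference over all genes tested was -0.04. Each list count below is to be read against these shares. A gene detected in 1 line alone entered the test through that line, so a call in its direction was favoured in advance. The authors' own processed values, in a table that appears normalised slide by slide, split the calls differently, with 2757 higher in Huh7 and 1827 higher in THP1, so that 60.1% of calls were higher in Huh7 there against 49.1% here. On every Huh7 array and no THP1 array 761 probes were detected, for 583 named genes, and on every THP1 array and no Huh7 array 580 probes, for 443 named genes.

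**Figure D2:**
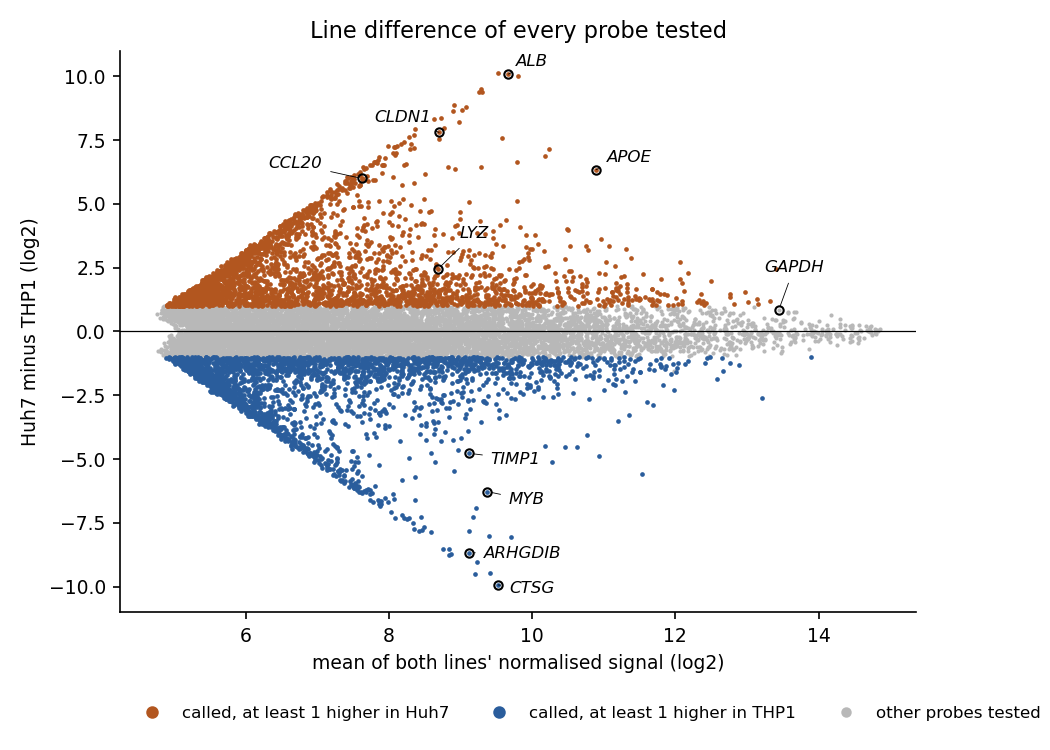
Difference between lines (Huh7 minus THP1, log2, y axis) against the mean of both lines' signal (log2, x axis) for the 15021 probes tested, coloured where called with a size of at least 1. The coloured points number 2742 above and 2532 below 0, and the straight outer edges are probes at the background level in one line.

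Promoter sequence is shown for 3 genes with large differences, because the liver and myeloid factors described further down are known to bind short DNA motifs. The windows are those of RefSeq for GRCh38.p14, 300 bases around the start of the gene, printed 5′ to 3′ on the gene's strand. Capitals mark the letters of 1 motif each. PRTN3 encodes proteinase 3 of granules and PYCARD the inflammasome adaptor ASC, and their values follow below. The windows lie at chr4:73404037-73404336 (ALB, plus strand), chr19:840749-841048 (PRTN3, plus strand) and chr16:31202711-31203010 (PYCARD, minus strand).
ALB, TTGCNNAA on the opposite strand: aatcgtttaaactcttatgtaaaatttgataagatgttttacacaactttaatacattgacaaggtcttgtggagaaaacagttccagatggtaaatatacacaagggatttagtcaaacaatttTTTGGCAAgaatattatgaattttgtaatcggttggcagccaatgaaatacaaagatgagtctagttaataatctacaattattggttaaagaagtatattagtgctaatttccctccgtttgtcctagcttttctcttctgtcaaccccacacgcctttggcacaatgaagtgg
PRTN3, GAGGAAGT: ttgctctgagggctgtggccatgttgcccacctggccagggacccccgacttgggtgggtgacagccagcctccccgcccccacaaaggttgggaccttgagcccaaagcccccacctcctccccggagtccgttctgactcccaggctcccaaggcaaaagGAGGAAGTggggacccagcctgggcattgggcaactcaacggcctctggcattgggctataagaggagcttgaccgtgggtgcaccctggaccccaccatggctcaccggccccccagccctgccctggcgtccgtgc
PYCARD, GAGGAAGT on the opposite strand: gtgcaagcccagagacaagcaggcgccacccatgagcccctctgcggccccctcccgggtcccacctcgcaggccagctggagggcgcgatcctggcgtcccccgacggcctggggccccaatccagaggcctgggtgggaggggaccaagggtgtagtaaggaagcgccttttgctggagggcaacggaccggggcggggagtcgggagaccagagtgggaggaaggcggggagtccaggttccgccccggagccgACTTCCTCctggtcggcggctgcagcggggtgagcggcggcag
The matches start at -125 in ALB, -88 in PRTN3 and 7 in PYCARD, counted from the start of the gene.

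In all 10 letter strings were searched on both strands, and the strings and the genes shown were chosen after the expression values were seen. The string GAGGAAGT, a form bound by PU.1, was in 2.42% of 165 windows of genes higher in Huh7 by at least 4, in 13.99% of 143 windows of genes higher in THP1 by at least 4 and in 3.15% of all 27305 windows. Its core GAGGAA, which overlaps it, was in 35.8%, 55.9% and 31.8% of the same windows. The HNF4 string CAAAGTNCA was in 6.06%, 0.699% and 1.36%, and its single form CAAAGTCCA in 3.03%, 0% and 0.472%. The C/EBP string TTGCNNAA was in 18.8%, 20.3% and 12.7%, and its palindrome TTGCGCAA in 0%, 1.40% and 0.172%. The FOXA strings TGTTTAC and TGTTTGC were in 6.67% and 9.09% of windows of genes higher in Huh7, 3.50% and 7.69% of those higher in THP1 and 4.19% and 4.76% of all. The string TGACGTCA was in 1.21%, 0% and 2.25%. The set of all windows includes genes that were not tested. In the 8369 windows of tested genes, GAGGAAGT was in 3.79%, GAGGAA in 34.2%, CAAAGTNCA in 1.16% and CAAAGTCCA in 0.514%. In the same windows TTGCNNAA was in 10.8%, TTGCGCAA in 0.347%, TGTTTAC in 3.48%, TGTTTGC in 4.24% and TGACGTCA in 3.955%. These are counts of letters in windows of one length, with no test, and say nothing of binding.

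Plasma proteins were mostly higher in Huh7. Of 30 secreted hepatocyte proteins, 22 were measured; 21 were higher in Huh7, 1 was higher in THP1, and their median difference was 6.65. Fibrinogen gamma (FGG), a chain of the clot protein, was at 13.53, 13.37, 12.85 and 13.61 in Huh7 and 4.45, 4.34, 4.57 and 4.54 in THP1 (at least 213-fold higher in Huh7, adjusted p = 2.1e-10). Fibrinogen beta (FGB) had a bound of 195-fold, the thyroxine carrier transthyretin (TTR) of 142-fold and the adhesive protein vitronectin (VTN) of 107-fold, each detected on 16 Huh7 and 0 THP1 arrays. The leucine-rich glycoprotein LRG1 was the member higher in THP1, at 7.39, 7.40, 7.79 and 7.74 in Huh7 and 8.24, 8.66, 8.57 and 8.40 in THP1 (difference -0.88, SE 0.15, adjusted p = 0.00056), a call lost in 4 alternatives (largest adjusted p = 0.21, with the authors' values). Of the 8 members not measured, 4 were undetected on all 32 arrays.

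Lipoprotein genes were also mostly higher in Huh7. Of 24 genes, 14 were measured, 13 were higher in Huh7 and 1 was higher in THP1, with a median difference of 4.28. APOA2, of HDL, was at 14.79, 14.73, 14.86 and 14.86 in Huh7 and 4.90, 4.92, 4.57 and 4.78 in THP1 (at least 592-fold higher in Huh7, adjusted p = 4.4e-11). APOB, the scaffold of LDL, had a bound of 90.4-fold, and MTTP, which loads lipid onto it, one of 13.9-fold. APOE, a ligand of the LDL receptor that macrophages make as well, was detected on every array of both lines, at 13.96, 14.08, 13.97 and 14.25 in Huh7 and 7.68, 7.82, 7.50 and 7.88 in THP1 (difference 6.35, SE 0.13, adjusted p = 2.8e-10). APOC1 and APOC2, which lie beside APOE, were also detected on every array, with differences of 2.81 (SE 0.16) and 1.35 (SE 0.15). The cholesteryl ester carrier CETP was the member higher in THP1 (at least 1.17-fold lower in Huh7, adjusted p = 0.00035), detected on 12 THP1 arrays, and its call was lost in 3 alternatives (largest adjusted p = 0.10, with the authors' values).

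All 14 measured coagulation and fibrinolysis genes of 19 and all 11 measured complement genes of 20 were higher in Huh7, with median differences of 3.98 and 2.61. Of these, 11 coagulation and 8 complement genes were detected on every Huh7 and no THP1 array. They entered the test through Huh7, and a call in the other direction was hardly open to them. The protein C inhibitor SERPINA5 was at 11.08, 10.87, 11.47 and 11.71 in Huh7 and 4.45, 4.45, 4.45 and 4.41 in THP1 (at least 51.3-fold higher in Huh7, adjusted p = 1.4e-09). Factor X (F10) had a bound of 10.6-fold, factor V (F5) of 8.34-fold and factor VII (F7) of 3.20-fold. Protein S (PROS1), a cofactor of protein C, was detected on every array of both lines (difference 3.37, SE 0.11, adjusted p = 7.4e-09). Complement factor B (CFB) was at 8.39, 8.09, 7.27 and 9.34 in Huh7 and 4.61, 4.56, 4.50 and 4.63 in THP1, a bound of 6.37-fold (adjusted p = 1.2e-05). C3, the hub of the cascade, was at 6.12, 6.64, 7.70 and 8.23 in Huh7 and 4.49, 4.46, 4.58 and 4.66 in THP1, a bound of 2.96-fold. Both genes varied by more than 2 between Huh7 experiments and stayed above THP1 in each.

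C5 was the one gene of the liver complement list detected in both lines, and it lies beside the region the study's siRNA was aimed at. It was detected on all 32 arrays, at 11.31, 10.81, 11.31 and 11.31 in Huh7 and 8.69, 8.17, 8.26 and 8.69 in THP1 (difference 2.74, SE 0.18, adjusted p = 7.2e-07). Of 10 genes around C5 and TRAF1, 7 were measured, 2 were higher in Huh7 and 4 higher in THP1. Over all genes tested, 33.6% were higher in Huh7 and 33.2% higher in THP1. The membrane protein stomatin (STOM) was at 6.99, 6.93, 7.93 and 7.63 in Huh7 and 10.21, 10.31, 9.81 and 9.70 in THP1 (difference -2.64, SE 0.25, adjusted p = 1.0e-05), and its other tested probe differed by -0.86. The actin-severing protein gelsolin (GSN) differed by -1.48 (SE 0.19). TRAF1 was detected on 0 of 32 arrays.

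Metabolic enzymes of the liver were less uniform. Of 38 genes of xenobiotic metabolism and hepatic transport, 15 were measured, 13 were higher in Huh7 and 2 higher in THP1, and 12 were undetected on all 32 arrays. Among the undetected were the cytochromes CYP3A4, CYP2E1 and CYP2C8, CYP7A1 of bile acid synthesis and the bile acid carriers SLC10A1 and ABCB11. ALDH1A1, which oxidises retinal, was at 13.26, 13.16, 12.75 and 13.15 in Huh7 and 4.89, 4.74, 5.13 and 4.70 in THP1 (difference 8.22, SE 0.15, adjusted p = 1.8e-10). The sulfotransferase SULT2A1 had a bound of 14.8-fold and the epoxygenase CYP2J2 one of 15.5-fold. The fatty acid transporter and bile acid ligase SLC27A5 was higher in THP1, at 4.58, 4.81, 4.69 and 4.73 in Huh7 and 7.67, 7.92, 7.40 and 7.80 in THP1, detected on 0 Huh7 and 16 THP1 arrays (at least 4.76-fold lower in Huh7, adjusted p = 5.8e-08). The phenol sulfotransferase SULT1A1 was the other (difference -1.33, SE 0.34, adjusted p = 0.0064), a call lost in 3 alternatives (largest adjusted p = 0.17, with the authors' values). GSTA1 and GSTA2, glutathione transferases whose near-identical transcripts the probes may not tell apart, differed by 2.04 (SE 0.35) and by a bound of 3.54-fold.

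Of 26 genes of gluconeogenesis, the urea cycle and amino acid catabolism, 14 were measured, 10 were higher in Huh7, 3 higher in THP1 and 1 not called. HGD, which opens the ring of homogentisate in tyrosine breakdown, was at 10.65, 10.59, 10.69 and 10.55 in Huh7 and 4.56, 4.49, 4.62 and 4.87 in THP1 (difference 5.98, SE 0.12, adjusted p = 2.4e-10). FAH, the last step of the same pathway, was higher in THP1 (difference -1.25, SE 0.13, adjusted p = 2.3e-05), a call lost with the authors' values (adjusted p = 0.093). The urea cycle was divided as well. Carbamoyl phosphate synthetase (CPS1), argininosuccinate lyase (ASL) and arginase (ARG1) were higher in Huh7, by 2.54 (SE 0.38), by 1.77 (SE 0.12) and by at least 4.88-fold. Argininosuccinate synthase (ASS1) was higher in THP1, at 8.68, 8.71, 8.70 and 9.75 in Huh7 and 11.40, 11.52, 10.95 and 10.98 in THP1 (difference -2.25, SE 0.26, adjusted p = 4.2e-05), with other probes at -2.45 and -0.41. The fructose bisphosphatase FBP1 was also higher in THP1 (difference -1.41, SE 0.22, adjusted p = 0.00034). OTC, PCK1 and G6PC1, of the urea cycle and glucose output, were undetected on all 32 arrays.

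Of 20 cholesterol synthesis genes, 16 were measured, 10 were higher in Huh7, 1 higher in THP1 and 5 not called. The shares over all genes tested were 33.6% and 33.2%. DHCR7, the last step of the pathway, was at 12.43, 12.45, 12.23 and 12.58 in Huh7 and 8.97, 9.18, 8.98 and 9.16 in THP1 (difference 3.35, SE 0.12, adjusted p = 1.1e-08). The isomerase EBP differed by 2.24 (SE 0.24) and the decarboxylase MVD by 2.09 (SE 0.19). Squalene epoxidase (SQLE) was the member higher in THP1 (difference -0.50, SE 0.17, adjusted p = 0.029). Its call was lost in 10 alternatives (largest adjusted p = 0.63, with the authors' values). Among them were the fits without Huh7 experiment 2, Huh7 experiment 3 or THP1 experiment 1.

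Genes of the fetal liver were high in Huh7. Of 15 oncofetal genes, 13 were measured, all 13 were higher in Huh7, and their median difference was 5.75. Of the 13, 10 were detected on every Huh7 and no THP1 array and so entered the test through Huh7. AFP, the fetal counterpart of albumin, was at 13.65, 13.66, 14.26 and 14.34 in Huh7 and 4.59, 4.59, 4.75 and 4.51 in THP1 (at least 332-fold higher in Huh7, adjusted p = 2.0e-10). The trypsin inhibitor SPINK1 was at 14.13, 13.79, 13.91 and 13.93 in Huh7 and 4.54, 4.45, 4.61 and 4.69 in THP1 (at least 323-fold higher in Huh7). LIN28B, which blocks let-7 maturation, was at 11.38, 11.10, 10.96 and 11.07 in Huh7 and 4.43, 4.41, 4.55 and 4.53 in THP1, a bound of 45.9-fold. The Notch-like protein DLK1 had a bound of 67.9-fold, the RNA-binding protein IGF2BP3 one of 26.7-fold and the progenitor markers EPCAM and KRT19 bounds of 29.3-fold and 28.7-fold. The heparan sulfate proteoglycan glypican 3 (GPC3) was detected on every array of both lines, at 12.35, 12.27, 12.01 and 12.81 in Huh7 and 7.45, 7.59, 6.96 and 6.92 in THP1 (difference 5.13, SE 0.21, adjusted p = 2.9e-08).

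Of 22 hepatocyte transcription factors, 13 were measured, 11 were higher in Huh7 and 2 were not called, with a median difference of 2.38. The 3 pioneer factors were among the largest. FOXA2 was at 12.24, 12.14, 11.38 and 11.59 in Huh7 and 4.34, 4.44, 4.58 and 4.62 in THP1 (at least 75.4-fold higher in Huh7, adjusted p = 1.8e-09). FOXA3 and FOXA1 had bounds of 41.9-fold and 32.6-fold. The nuclear receptor NR5A2, the fasting factor CREB3L3 and the endoderm factor GATA4 had bounds of 8.08-fold, 9.03-fold and 2.46-fold. CEBPA, a factor of both hepatocytes and myeloid cells, was at 12.65, 12.85, 12.26 and 12.40 in Huh7 and 12.33, 12.62, 12.005 and 11.98 in THP1. Its levels overlapped and it was not called (difference 0.31, 95% interval -0.13 to 0.75, adjusted p = 0.18), but it was with the experiment number as a replicate block (adjusted p = 0.026). PROX1 and ONECUT1 differed between the slides of Huh7. PROX1 was at 10.65, 10.39, 7.37 and 7.51 in Huh7 and 4.40, 4.41, 4.36 and 4.42 in THP1, and ONECUT1 at 7.98, 7.71, 6.05 and 6.30 in Huh7 and 4.65, 4.78, 4.63 and 4.54 in THP1.

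**Figure D3:**
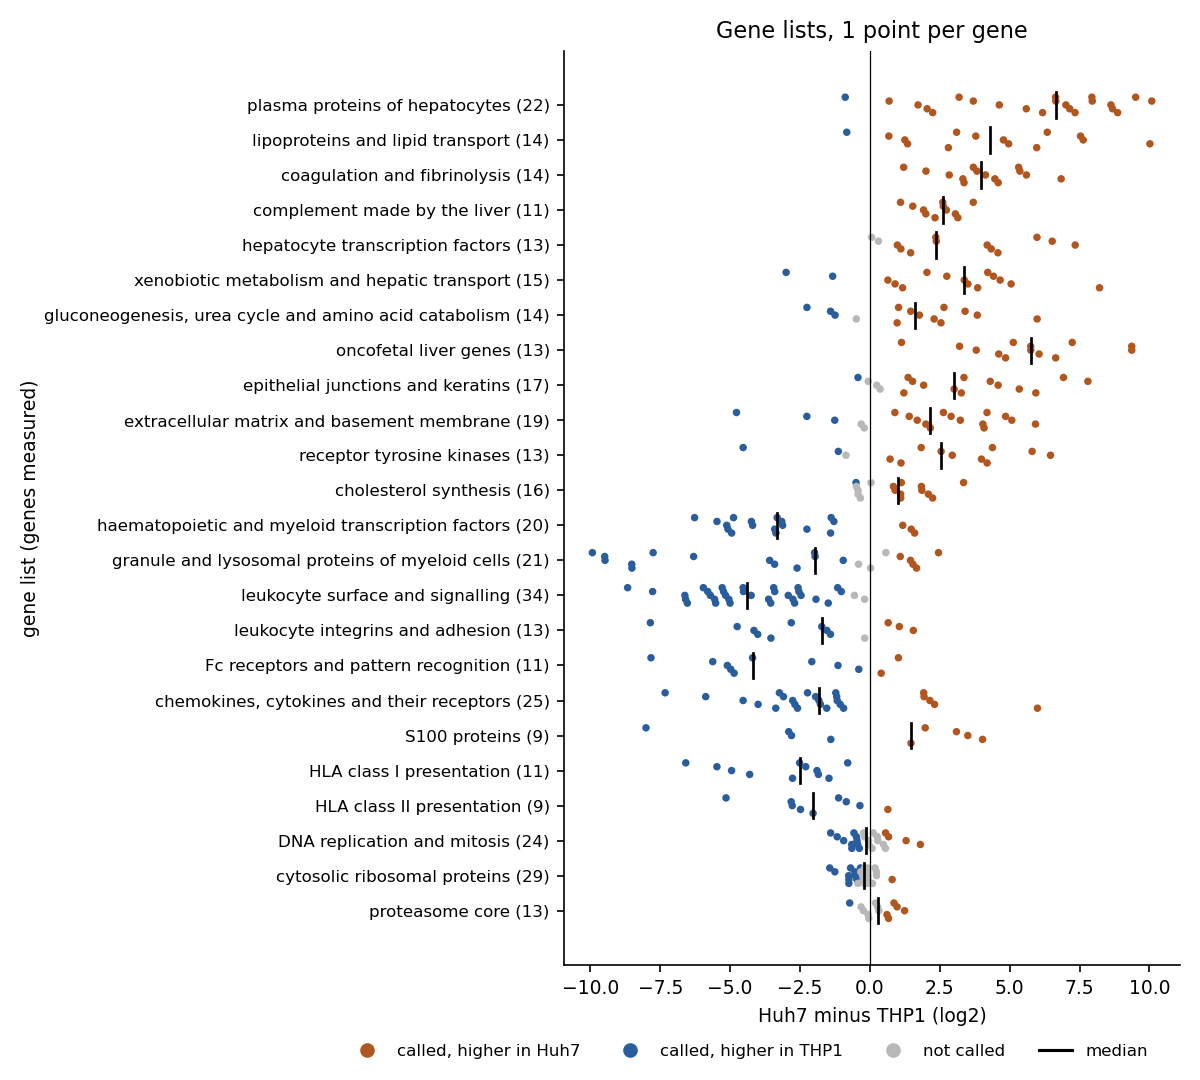
Difference between lines (Huh7 minus THP1, log2, x axis) of every measured gene of 24 lists (y axis, number measured in brackets), 1 probe per gene, coloured by call, bars at the medians. From plasma proteins to oncofetal genes the medians are 1.62 to 6.65, from haematopoietic factors to chemokines -1.72 to -4.39, for S100 genes 1.47, and replication, ribosome and proteasome genes medians of -0.20 to 0.28.

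Epithelial genes were mostly higher in Huh7. Of 29 junction and keratin genes, 17 were measured, 13 were higher in Huh7, 1 higher in THP1 and 3 not called. The tight junction protein claudin 1 (CLDN1) was at 12.68, 12.57, 12.81 and 12.35 in Huh7 and 4.87, 4.96, 4.65 and 4.72 in THP1 (at least 128-fold higher in Huh7, adjusted p = 1.5e-10). Keratin 8 (KRT8), cingulin (CGN) and E-cadherin (CDH1) had bounds of 61.9-fold, 35.3-fold and 18.4-fold. Of 26 matrix genes, 19 were measured, 14 were higher in Huh7 and 3 higher in THP1. The laminin chain LAMA5 and fibulin 1 (FBLN1) differed by 5.08 (SE 0.20) and 5.92 (SE 0.16), and FBLN1 was detected on 1 of 16 THP1 arrays. The metalloprotease inhibitor TIMP1 ran the other way, at 6.99, 6.70, 7.38 and 5.87 in Huh7 and 11.29, 11.67, 11.40 and 11.68 in THP1 (difference -4.77, SE 0.29, adjusted p = 4.0e-07). The basement membrane collagen COL4A1 was also higher in THP1 (difference -2.26, SE 0.15, adjusted p = 7.8e-07), detected on 1 Huh7 and 16 THP1 arrays.

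Growth factor receptors were mostly higher in Huh7. Of 19 receptor tyrosine kinases, 13 were measured, 10 were higher in Huh7, 2 higher in THP1 and 1 not called. FGFR4, the receptor for the bile acid hormone FGF19, was at 11.26, 11.35, 11.08 and 11.31 in Huh7 and 5.44, 5.56, 5.34 and 5.45 in THP1 (difference 5.80, SE 0.11, adjusted p = 2.1e-10). FGFR3 differed by 6.46 (SE 0.13), and ERBB3, EGFR and ERBB2 had bounds of 10.1-fold, 8.34-fold and 10.9-fold. The receptor for the macrophage growth factor, CSF1R, was at 4.51, 4.44, 4.32 and 4.51 in Huh7 and 9.17, 9.11, 8.76 and 8.89 in THP1 (at least 11.6-fold lower in Huh7, adjusted p = 2.2e-09). The receptor AXL was also higher in THP1 (at least 1.19-fold lower in Huh7, adjusted p = 0.00068), detected on 11 THP1 arrays.

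The other direction was led by granule proteases. Of 22 granule and lysosomal genes of myeloid cells, 21 were measured, 5 were higher in Huh7, 13 higher in THP1 and 3 not called, with a median difference of -1.98. Cathepsin G (CTSG) was at 4.57, 4.43, 4.64 and 4.61 in Huh7 and 14.66, 14.55, 14.26 and 14.50 in THP1 (at least 528-fold lower in Huh7, adjusted p = 4.4e-11). Neutrophil elastase (ELANE) was at 4.44, 4.37, 4.41 and 4.62 in Huh7 and 13.52, 13.96, 14.25 and 14.07 in THP1, a bound of 363-fold. PRTN3 was at 4.53, 4.52, 4.50 and 4.46 in Huh7 and 12.58, 13.27, 13.38 and 12.85 in THP1, a bound of 191-fold. Azurocidin (AZU1), which lies beside PRTN3 and ELANE, had one of 110-fold. The granule proteoglycan serglycin (SRGN) and the ribonuclease RNASE2 had bounds of 419-fold and 200-fold. In these 6 genes no Huh7 array and every THP1 array was above detection.

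Transcription factors of blood cells followed. Of 25, 20 were measured, 3 were higher in Huh7 and 17 higher in THP1, with a median difference of -3.34. MYB, which keeps blood progenitors immature, was detected on every array of both lines, at 6.40, 6.25, 6.06 and 6.25 in Huh7 and 12.53, 12.30, 12.56 and 12.66 in THP1 (difference -6.27, SE 0.13, adjusted p = 2.5e-10). IRF8, which favours monocytes over granulocytes, was at 8.42, 8.27, 6.99 and 7.18 in Huh7 and 12.68, 12.84, 12.98 and 12.84 in THP1 (difference -5.12, SE 0.32, adjusted p = 4.8e-07). GFI1 and LMO2 had bounds of 29.0-fold and 19.4-fold lower in Huh7. Higher in Huh7 were CEBPB, the C/EBP factor of the acute phase response (difference 1.60, SE 0.14, adjusted p = 6.0e-06), BCL6 (difference 1.48, SE 0.20) and MEIS1 (at least 1.08-fold higher in Huh7). Of 19 HOXA and HOXB genes, 9 had a named probe and 3 were measured, of which 1 was higher in THP1 and 2 were not called. That count is near the share of 33.2% higher in THP1 over all genes tested.

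Of 45 leukocyte surface and signalling genes, 34 were measured, 0 were higher in Huh7, 32 were higher in THP1 and 2 were not called, with a median difference of -4.39. Of the 34, 22 were detected on every THP1 and no Huh7 array and so entered the test through THP1. The signalling protein ARHGDIB was at 5.04, 4.90, 4.75 and 4.47 in Huh7 and 13.31, 13.22, 13.69 and 13.61 in THP1 (at least 258-fold lower in Huh7, adjusted p = 1.8e-10). The GTPase RAC2, its exchange factor DOCK2 and the signalling adaptor TYROBP had bounds of 120-fold, 52.2-fold and 48.6-fold. LAIR1 and LILRB1, inhibitory receptors of leukocytes, were the members not called. LAIR1 was at 14.37, 14.44, 13.97 and 14.14 in Huh7 and 14.60, 14.64, 14.10 and 14.34 in THP1, and its other tested probe differed by -2.97. LILRB1 was at 10.04, 10.31, 9.23 and 9.63 in Huh7 and 11.01, 10.89, 9.36 and 10.15 in THP1. With the experiment number as a replicate block LILRB1 was called (difference -0.55, adjusted p = 0.0091) and LAIR1 was not. Both were thus high in the hepatoma line by these probes, and what these probes bind there was not tested.

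Of 15 integrin and adhesion genes, 13 were measured, 3 were higher in Huh7, 9 higher in THP1 and 1 not called. The leukocyte beta chain ITGB2 was at 4.58, 4.58, 4.54 and 4.97 in Huh7 and 12.39, 12.42, 12.63 and 12.64 in THP1 (at least 135-fold lower in Huh7, adjusted p = 1.5e-10). The widespread beta chain ITGB1 was higher in Huh7 (difference 1.55, SE 0.16, adjusted p = 2.2e-05). Of 25 Fc and pattern recognition receptors and their partners, 11 were measured, 2 were higher in Huh7 and 9 higher in THP1, and 11 were undetected on all 32 arrays, among them the toll-like receptors TLR1, TLR5, TLR6 and TLR8 and the scavenger receptors CD163 and MSR1. PYCARD was at 4.44, 4.50, 4.64 and 4.45 in Huh7 and 12.36, 12.64, 12.20 and 12.15 in THP1 (at least 119-fold lower in Huh7, adjusted p = 1.5e-10). Its partners in the inflammasome, the sensor NLRP3 and the protease CASP1, had bounds of 16.6-fold and 14.97-fold, and the Fc receptors FCGR1A and FCGR2A of 25.5-fold and 19.9-fold. Of 8 phagocyte oxidase genes, 4 were measured and 4 were higher in THP1, with NCF4 at least 14.3-fold lower in Huh7.

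Chemokine and cytokine genes divided. Of 39, 25 were measured, 5 were higher in Huh7 and 20 higher in THP1. CCL5, which draws T cells and monocytes, was at 4.69, 4.56, 4.57 and 4.55 in Huh7 and 11.66, 11.91, 11.94 and 12.18 in THP1 (at least 88.8-fold lower in Huh7, adjusted p = 1.5e-10). The monocyte receptor CCR2 had a bound of 33.5-fold. CCL20, the ligand of CCR6, was the reverse, at 11.03, 11.14, 10.28 and 10.03 in Huh7 and 4.88, 4.52, 4.48 and 4.62 in THP1 (at least 32.4-fold higher in Huh7, adjusted p = 3.0e-08). Interleukin 8 (CXCL8) was at 7.86, 7.56, 8.22 and 5.19 in Huh7 and 5.04, 5.19, 4.87 and 5.17 in THP1 (difference 2.15, SE 0.56, adjusted p = 0.0076). Huh7 experiment 4 lay at the THP1 level. The call was lost with the slide as a random block (adjusted p = 0.077) and in experiments 3 and 4 alone (adjusted p = 0.17).

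Antigen presentation genes were higher in THP1. Of 16 class I genes, 11 were measured and 11 were higher in THP1, with a median difference of -2.52. HLA-B was at 4.55, 4.55, 4.48 and 4.66 in Huh7 and 9.92, 9.78, 10.27 and 10.17 in THP1 (at least 24.0-fold lower in Huh7, adjusted p = 9.7e-10). As HLA genes are variable in sequence, a probe can miss an allele, so this level is uncertain. The proteasome subunits PSMB8 and PSMB9, which replace standard ones for antigen processing, differed by -6.59 (SE 0.12) and -4.95 (SE 0.16). In Huh7 they were detected on at most 3 and on 1 of 16 arrays. The peptide pump subunit TAP1 was detected on every array of both lines and differed by -4.30 (SE 0.17). The light chain B2M was at 10.48, 10.37, 10.83 and 11.05 in Huh7 and 12.39, 11.96, 12.03 and 12.21 in THP1 (difference -1.46, SE 0.18, adjusted p = 5.6e-05). Of 14 class II genes, 9 were measured, 1 was higher in Huh7 and 8 higher in THP1. The invariant chain CD74 was at least 18.9-fold lower in Huh7 (adjusted p = 3.1e-10) and HLA-DRA at least 3.74-fold lower, whereas the peptide exchanger HLA-DMB was detected on 9 Huh7 and 0 THP1 arrays (difference of measured means 0.64, adjusted p = 0.0077), a call lost in 3 alternatives (largest adjusted p = 0.094, with no normalisation between arrays). The class II master regulator CIITA was detected on 0 of 32 arrays.

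Some classical monocyte genes were higher in the hepatoma line. Lysozyme (LYZ) was at 10.11, 10.09, 10.24 and 9.23 in Huh7 and 6.67, 8.23, 7.97 and 6.97 in THP1 (difference 2.45, SE 0.37, adjusted p = 0.00026), and its other tested probe differed by 0.48. The lipopolysaccharide co-receptor CD14 was at 6.72, 6.70, 6.79 and 7.34 in Huh7 and 5.96, 6.05, 5.50 and 5.96 in THP1 (difference 1.02, SE 0.18, adjusted p = 0.00087). The CD14 call was lost with the authors' values (adjusted p = 0.072) and on the arrays with the third siRNA (difference 0.54, adjusted p = 0.17). In neither gene did the experiments of the lines overlap. Of 12 S100 genes, 9 were measured, 5 were higher in Huh7 and 4 higher in THP1, against 33.6% and 33.2% over all genes tested. The calprotectin chain S100A8 was at 4.51, 4.60, 4.48 and 4.50 in Huh7 and 7.07, 8.50, 7.84 and 6.30 in THP1 (at least 3.94-fold lower in Huh7, adjusted p = 0.00013). Its partner S100A9 was at 10.04, 10.11, 8.34 and 8.96 in Huh7 and 7.41, 9.16, 8.16 and 6.84 in THP1 (difference 1.47, SE 0.54, adjusted p = 0.036). The S100A9 levels overlapped, and the call was lost in 11 alternatives. Among them were 5 of the 8 fits that left out 1 experiment and the slide as a random block (adjusted p = 0.13). S100P was at 11.20, 10.94, 10.08 and 10.40 in Huh7 and 6.84, 5.39, 6.92 and 7.34 in THP1 (difference 4.03, SE 0.41, adjusted p = 1.7e-05), and S100A4 was the reverse at 5.85, 5.60, 5.23 and 4.92 in Huh7 and 13.22, 13.13, 13.71 and 13.59 in THP1 (difference -8.01, SE 0.22). The lectin LGALS1, among the largest differences of any gene, differed by -8.05 (SE 0.11).

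Genes common to dividing cells were called in both directions. Of 24 replication and mitosis genes, 24 were measured, 4 were higher in Huh7, 10 higher in THP1 and 10 not called, with a median difference of -0.12, against 33.6% higher in Huh7 and 33.2% higher in THP1 over all genes tested. The mitotic kinase AURKB was at 10.92, 11.11, 11.11 and 10.92 in Huh7 and 8.89, 9.04, 9.56 and 9.35 in THP1 (difference 1.80, SE 0.16, adjusted p = 6.7e-06), and the replicative helicase subunit MCM5 differed by -1.41 (SE 0.22). Of 32 cytosolic ribosomal protein genes, whose many pseudogenes make single probes uncertain, 29 were measured, 1 was higher in Huh7, 10 higher in THP1 and 18 not called, with a median of -0.20. Of 14 proteasome core genes, 13 were measured, 5 were higher in Huh7, 1 higher in THP1 and 7 not called, with a median of 0.28. Genes often used as internal controls were also called in both directions. The transferrin receptor TFRC was at 12.40, 12.15, 12.37 and 12.66 in Huh7 and 10.14, 9.94, 9.25 and 9.38 in THP1 (difference 2.72, SE 0.21, adjusted p = 2.8e-06). GAPDH, of glycolysis, differed by 0.83 (SE 0.14, adjusted p = 0.00054) and PGK1, of the same pathway, by -1.53 (SE 0.18, adjusted p = 5.7e-05). Of 10 measured genes of that kind, 3 were higher in Huh7, 5 higher in THP1 and 2 not called, against the same shares over all genes tested. The GAPDH call was lost in 3 alternatives (largest adjusted p = 0.14, with the authors' values).

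Metallothioneins, small metal-binding proteins induced by zinc, were mixed. Of 9, 7 were measured, 1 was higher in Huh7, 3 higher in THP1 and 3 not called, and near-identical members may share a probe. MT1M was at 7.69, 8.65, 8.26 and 6.78 in Huh7 and 4.40, 4.40, 4.52 and 4.42 in THP1 (at least 4.72-fold higher in Huh7, adjusted p = 1.5e-05). MT1G was at 6.15, 6.90, 6.52 and 5.26 in Huh7 and 10.78, 10.80, 11.19 and 11.06 in THP1 (difference -4.75, SE 0.31, adjusted p = 7.1e-07). Of 12 p53 and INK4 genes, 8 were measured, 4 were higher in Huh7 and 1 higher in THP1. The counts of these and of the metallothioneins stand against 33.6% higher in Huh7 and 33.2% higher in THP1 over all genes tested. CDKN2A, which encodes p16, was at 7.35, 7.64, 8.22 and 7.53 in Huh7 and 4.42, 4.59, 4.57 and 4.42 in THP1 (at least 4.24-fold higher in Huh7, adjusted p = 3.0e-07). The p53 target CDKN1A was at 7.79, 7.74, 7.77 and 7.87 in Huh7 and 8.68, 8.43, 8.43 and 9.08 in THP1 (difference -0.86, SE 0.16, adjusted p = 0.00095), a call lost in 3 alternatives (largest adjusted p = 0.22, with the authors' values).

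Some liver lists also varied between the passages of Huh7, with many of their highest levels in experiment 4. It was the highest of the 4 for 14 of 14 coagulation genes, 17 of 22 plasma proteins, 12 of 14 lipoprotein genes, 9 of 11 complement genes and 13 of 16 cholesterol synthesis genes, against 24.4% of all 10144 genes tested. The median excess of experiment 4 over the mean of the other 3 was 0.79 for coagulation genes and 0.55 for plasma proteins, against -0.01 for all genes tested. Experiment 4 was also the highest for 10 of 14 genes of gluconeogenesis, the urea cycle and amino acid catabolism (median excess 0.59). For xenobiotic metabolism and hepatic transport it was the highest for 8 of 15 genes (median excess 0.16). Hepatocyte transcription factors and oncofetal genes had median excesses of 0.05 and -0.01. Experiment 4 was the highest for 2 of 13 of these factors, of which 7 were highest in experiment 1, and for 5 of 13 oncofetal genes. Of the lists outside the liver, it was the highest for 9 of 13 integrin and adhesion genes. Several of these 13, among them ITGAM, ITGA4, SPN and ITGB7, were detected on 0 of 16 Huh7 arrays, so their ranks rest on background values. APOC3, of triglyceride-rich lipoproteins, was at 9.67, 9.58, 10.44 and 12.32 in Huh7 and 4.46, 4.52, 4.51 and 4.66 in THP1 (at least 29.8-fold higher in Huh7). ARG1 was at 7.80, 7.004, 6.90 and 9.86 in Huh7 and 4.48, 4.44, 4.46 and 4.57 in THP1, and antithrombin (SERPINC1) at 9.38, 9.12, 7.56 and 10.57 in Huh7 and 4.71, 4.55, 4.47 and 4.55 in THP1. The same experiment was the lowest for 7 of 7 metallothioneins, with a median of -1.26. Experiment 4 shared its slide with experiment 3, and both controls showed it alike: APOC3 was at 12.43 with NC1 and 12.21 with NC2, and CXCL8 at 5.21 and 5.18. Its array signals spanned 247 to 397, the widest range of any Huh7 experiment, and the part of signal in this pattern was not tested. Without Huh7 experiment 4, the counts higher in Huh7 were 14 coagulation genes, 11 complement genes, 21 plasma proteins and 13 lipoprotein genes, and 8 instead of 10 cholesterol genes. In THP1, experiment 4 was the highest for 10 of 22 plasma proteins, 7 of 14 lipoprotein genes and 5 of 11 complement genes. It was the highest there for 3 of 14 coagulation genes and 4 of 16 cholesterol synthesis genes, against 20.6% of all genes tested. The median excess in THP1 was 0.10 for plasma proteins, many of which were undetected in that line. The Huh7 pattern was noticed in the data and has no test.

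**Figure D4:**
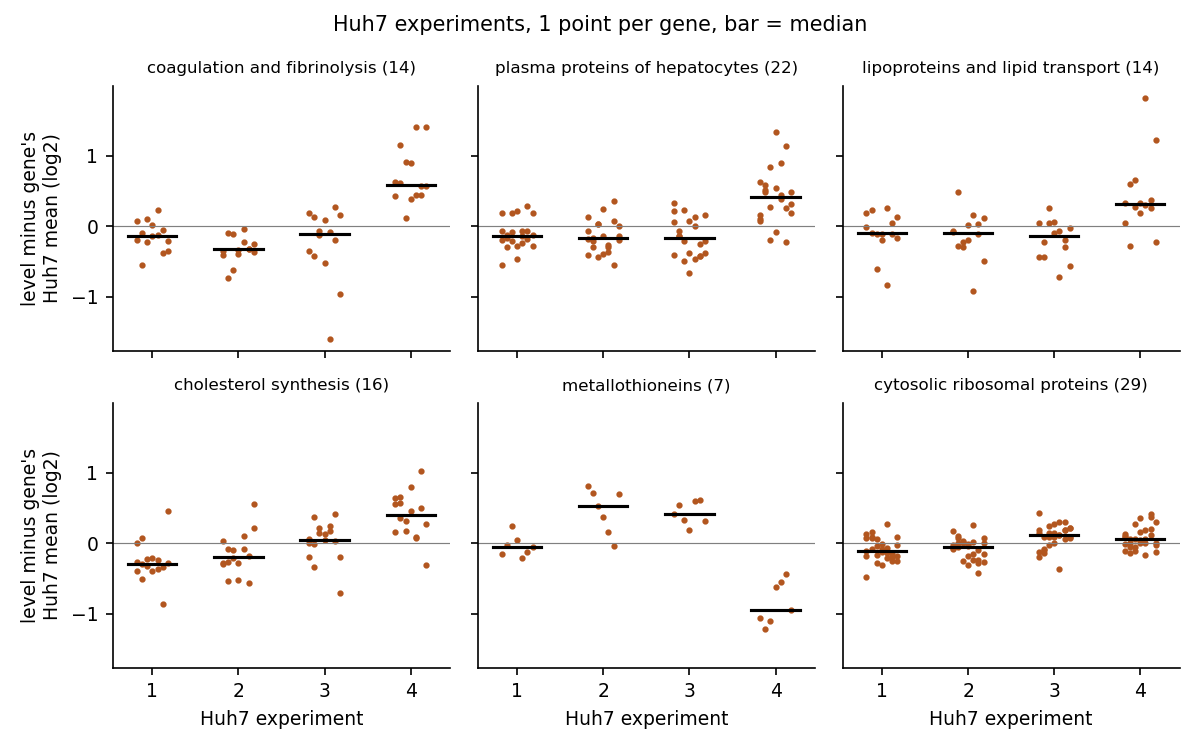
Level of each measured gene minus its mean over the Huh7 experiments (log2, y axis) in Huh7 experiments 1 to 4 (x axis) for 6 lists (number of genes in brackets), 1 point per gene and bars at the medians. All 14 coagulation genes are highest and all 7 metallothioneins lowest in experiment 4.

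Because line and slide cannot be told apart, differences between the slides of 1 line give a measure of what a slide, with its passages, can do. Experiments 3 and 4 minus 1 and 2 gave 1008 higher and 1556 lower probes in Huh7 (17.1% of those tested) and 1058 higher and 1810 lower probes in THP1 (19.1%). The median size of these differences was 0.25 in Huh7 and 0.26 in THP1, against 0.71 for the difference between lines over all probes tested. A slide difference of at least 1 was found for 6.15% of probes in Huh7 and 5.96% in THP1, and a line difference of at least 1 for 35.4%. Of the 5274 probes called between lines with a size of at least 1, 80 had a larger slide than line difference, and 4436 differed by at least 1 in the same direction in both phases. With the slide as a random block (consensus correlation 0.557) 5204 of the 5274 were still called. Of all 9677 calls of any size, 7884 were still called with that block. Its counts were 3950 probes higher in Huh7 and 3934 higher in THP1.

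The slide differences were shared between the lines. Of 1207 probes called in both lines, 1172 had the same sign, and of 65 probes with a slide difference of at least 2 in both lines, 65 had the same sign. HOXB6, a homeobox gene, was at 5.21, 5.01, 9.06 and 9.16 in Huh7 and 4.69, 4.82, 8.68 and 9.08 in THP1 (line difference 0.29, adjusted p = 0.86), and its other tested probe differed between lines by -0.67. The kinase TAOK1 was at 9.01, 8.71, 5.59 and 5.55 in Huh7 and 8.60, 8.40, 5.73 and 5.14 in THP1, and the nucleolar GTPase GNL3L at 11.11, 11.11, 7.77 and 7.37 in Huh7 and 10.91, 11.26, 8.23 and 7.87 in THP1. Both lines thus showed these jumps between the same pairs of experiments. The line difference itself depended on the phase for 292 probes (1.94% of those tested). PTPRC was one, with line differences of -2.74 in experiments 1 and 2 and -0.24 in experiments 3 and 4 (adjusted p of the change = 0.0013). PROX1 was another, with 6.11 in experiments 1 and 2 and 3.05 in experiments 3 and 4 (adjusted p of the change = 0.0013). Fetal TRIM71, a let-7 target, had 5.26 and 2.35.

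**Figure D5:**
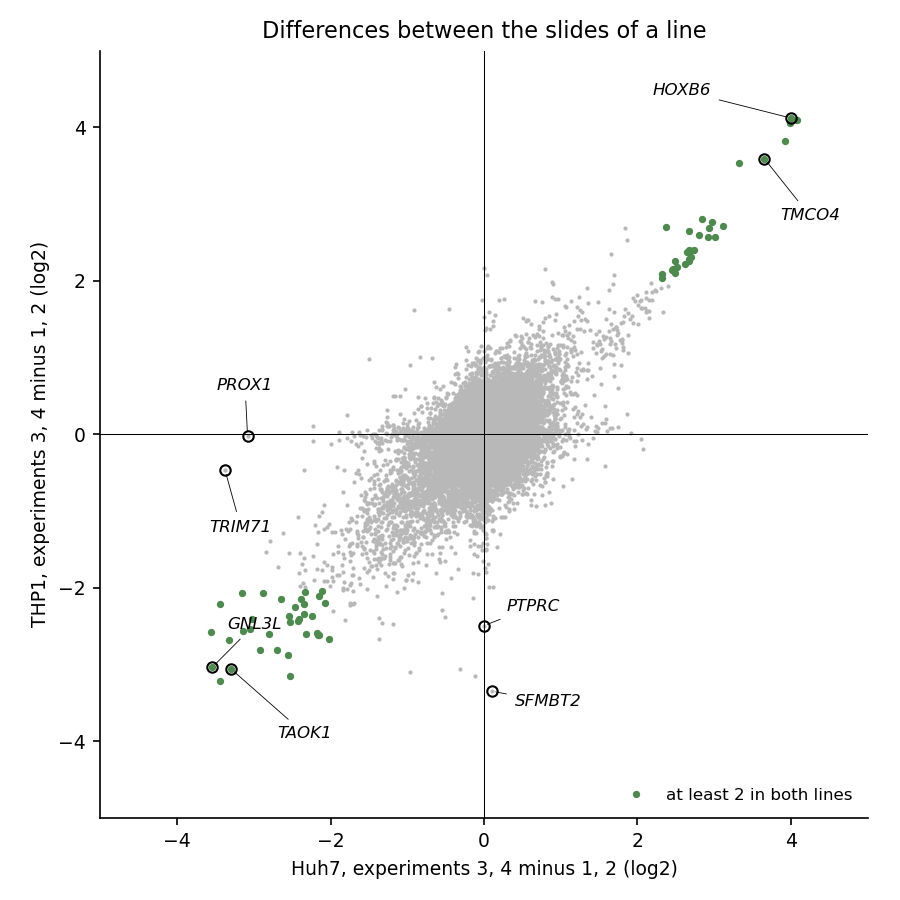
Difference between the slides of a line (experiments 3 and 4 minus 1 and 2, log2) in Huh7 (x axis) and THP1 (y axis) for the 15021 probes tested, with the 65 probes of at least 2 in both lines in green. All 65 lie in the quadrants of shared sign, whereas PROX1 and TRIM71 moved in Huh7 and PTPRC and SFMBT2 in THP1.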

How the data were processed

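Total RNA of 48 transfected wells was measured on Illumina bead arrays. The deposited scanner table gives each probe's intensity and a detection p-value per array, per the file headers. The authors' processed values form a second deposited table, and lumi and limma are named in the submitters' processing notes, with the steps and versions not given in the sources used here. Its scale and centring are not stated, and it served as an alternative after a floor at 0, addition of 16 and log2.

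Intensities of all 48 arrays as deposited were background-corrected with limma's nec from the detection p-values (offset 16), taken to log2 and quantile normalised (R 4.3.3, limma 3.58.1). Probes entered the test when 8 or more of the 16 control arrays of either line detected them, at a p-value threshold of 0.01. Wells and both controls were averaged per experiment, and the 8 experiment means were compared with limma's lmFit and eBayes (6 residual degrees of freedom) with Benjamini-Hochberg adjustment. Probes with 1 gene symbol were named, and the brightest tested probe stood for a gene. The procedure was tested on simulated data. The slides of a line and the change of the line difference between phases were tested in a model of 4 slide groups.

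Named genes were the 7 markers, the 12 largest differences in each direction, the extreme, opposing and near-zero members of each list, all members of lists with 15 or fewer measured members, and the largest slide differences. Genes named as undetected, and HNF4A and CD33, fall outside that rule. Members, lists and motif strings were chosen with earlier results of these data known, and 1 of the motif strings is not reported here. Same-numbered experiments of the lines deviated together (correlations of 0.661, 0.507, 0.636 and 0.415 for experiments 1 to 4), which met the criterion of a correlation above 0.1 in every pair. Each Huh7 experiment correlated at 0.459, 0.408, 0.387 and 0.3 with the other THP1 experiment of its phase. These values meet the criterion too, so it cannot tell pairing by number from a shared phase. The same-numbered THP1 experiment had the highest correlation for each Huh7 experiment.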

Additional observations from a re-analysis of the deposited data

Results flagged for a closer look

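A test set the highest or lowest experiment against the other 3 of its line, for 144 genes in each line. It picked out 17 values. Chance picks about 1 in 20 such groups, so a number of this order comes by chance. The number beside each gene is the gap to the nearest experiment as a share of the range. Huh7 experiment 4 gave 7 of the 17. It was the highest for ASS1 (0.966), TF (0.901), ITGB2 (0.919), GSN (0.888) and CD14 (0.85), and the lowest for LYZ (0.855) and KRT8 (0.835). Huh7 experiment 1 stood apart for CCL5 (0.893) and GFI1 (0.886), both undetected in Huh7. Huh7 experiment 2 was the lowest for C5 (0.998) and CYP2J2 (0.854). In THP1, experiment 1 was the highest for CGN (0.937) and FCGR2A (0.93), experiment 2 the lowest for GFI1 (0.904) and APOC2 (0.886), experiment 3 the highest for KRT8 (0.838) and experiment 4 the lowest for SERPINA5 (0.862). The THP1 values of CGN, KRT8 and SERPINA5 were below detection.

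The line difference changed between phases for 11 of 144 genes given above (interaction in limma, adjusted over all probes tested), against 1.94% of all probes tested. Genes with the largest slide differences were named by rule, so the count among named genes was raised in advance. The change, experiments 3 and 4 minus experiments 1 and 2, was 3.45 for SFMBT2, 2.49 for PTPRC, 1.32 for STOM and 0.997 for LAMA5. It was -3.06 for PROX1, -2.9 for TRIM71, -1.86 for GSTA1, -1.68 for GSTA2, -1.54 for ONECUT1, -1.42 for IRF8 and -1.13 for S100A4. None of the 11 changed direction between phases, and phase, slide and passage cannot be told apart within a line.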

How the results depend on the processing

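No probe called between lines was called in the opposite direction under any alternative. Without background correction, 1709 probes were higher in Huh7 and 1476 higher in THP1 by at least 1. Median scaling gave 3230 probes higher in Huh7 and 2602 higher in THP1, so 55.4% of calls were higher in Huh7, and no normalisation between arrays gave 2980 higher in Huh7 and 2431 higher in THP1. The authors' values gave 2757 higher in Huh7 and 1827 higher in THP1. With the 8100 probes detected on all 32 arrays, fewer probes were tested, and 2075 were higher in Huh7 and 2675 in THP1 (883 and 1004 by at least 1), so 43.7% of calls were higher in Huh7. Under median scaling the slide calls numbered 4992 in Huh7 and 12547 in THP1 and the line-by-phase calls 6765, and the cause was not tested. A detection threshold of 0.05 left 480 probes detected on every Huh7 and no THP1 array and 341 the other way, since more probes then count as detected in the dim line. Leaving out 1 experiment gave 4437 to 4659 probes higher in Huh7 (2720 to 2792 by at least 1) and 4581 to 4869 higher in THP1 (2480 to 2615). With the experiment number as a replicate block the counts were 5327 and 5835 (2754 and 2560 by at least 1). Phase as a fixed term, chosen after seeing the data, gave 5300 and 5784. Signal near background limits the differences of dim probes, which are mostly given as bounds where no array of the dim line detected the probe. Probes detected on a few arrays of the dim line are given as differences of means near background. HGD, FBLN1 and PSMB9 were such probes, each detected on 1 of 16 arrays of the dim line. HLA-DMB had no bound above 1-fold, so its difference rests on an undetected level in THP1.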
